A study of Homo sapiens with 8 samples.

Results

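The cytosolic ribosomal protein genes encode the proteins of the ribosome that translates messenger RNA in the cytoplasm. They were taken as protein-coding rows whose GENCODE 29 symbol is RPL or RPS followed by a number and, where present, A, L, X, L1 or AX, together with RPLP0, RPLP1, RPLP2 and RPSA, leaving out chromosome Y. The rule found 84 genes among 58780 annotated genes, 52 named for the large subunit and 32 for the small subunit. Of these, 7 are paralogs with a parent gene of nearly the same name (RPL3L, RPL7L1, RPL10L, RPL22L1, RPL26L1, RPL39L and RPS27L), which leaves 77 others, 46 large and 31 small. The cells were H1, an established line of human embryonic stem cells, led stepwise in culture towards pharyngeal endoderm and sampled at 4 stages with 2 libraries each. The stages were the undifferentiated cells (hESC), definitive endoderm (hDE), endoderm of the anterior foregut (hAFE) and, last, of the pharyngeal foregut (hPFE). The labels give no further treatment, day or genotype, and all stages share the 1 line. Titles mark the hESC and hDE libraries as re-analysed and leave the hAFE and hPFE libraries unmarked, so stage and origin cannot be told apart in hAFE against hDE and in hPFE against hESC. No label ties the paired libraries of a stage to separate cultures, so the p-values rest on the spread between paired libraries alone, and that spread may be technical.

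A ribosome holds a single copy of most of its proteins, and cells make them in matched amounts, so these genes are among the most evenly and highly expressed in a dividing cell. Most of their messenger RNAs begin with a terminal oligopyrimidine (TOP) run, a C at the first base followed only by C or T. The kinase mTOR and the protein LARP1 act through that run to set how much of the message is translated. A few members have a paralog that can take the place of the parent protein or is made mainly in certain tissues, such as RPL3L in muscle and RPL10L and RPL39L in the testis.

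Libraries held 12687161 to 17802900 estimated counts. The summed level of POU5F1, NANOG and SOX2 was 1127 to 1197 CPM (counts-per-million, scaled by TMM) in hESC and at most 158.7 later. SOX17, FOXA2 and CXCR4 reached 782 to 828 CPM in hDE against at most 68.5 CPM in hAFE and hPFE. FOXA2 alone kept its mean level in hAFE. PAX9, PAX1, TBX1 and ISL1 summed to 82.2 to 194.5 CPM in hPFE against 31.3 to 68.2 in hAFE. TBX1 alone was higher on average in hAFE. SOX2, FOXA2 and FOXA1 did not mark hAFE apart from hESC or hPFE. Their sum was 101.6 to 277.9 CPM in hAFE, 129.6 to 130.4 in hESC and 159.7 to 196.9 in hPFE. Of the markers of other cell types, the 3 for blood and endothelium summed to 0.0731 to 3.11 CPM over all libraries, the neural list to 71.0 to 249.5 CPM through NES, and the mesoderm and muscle list to 11.2 to 68.1 CPM through ACTC1, which was lowest in hESC. Their part in the members' changes was not tested. The 2 hAFE libraries differed in stage markers: SOX2 was at 158.2 and 57.2 CPM, FOXA1 at 78.6 and 26.7, and ISL1 at 5.22 and 39.8. PAX9 was alike in them (25.4 and 21.8 CPM). The 2 hPFE libraries differed in stage markers as well: PAX9 was at 95.7 and 28.6 CPM and ISL1 at 71.2 and 34.3. PAX1 was at 26.5 and 17.3 CPM and TBX1 at 1.21 and 1.95. In hPFE against hAFE PAX1 passed (edgeR adjusted p = 0.0161), while PAX9 (0.16), ISL1 (0.345) and TBX1 (0.516) did not. The second hPFE library stood apart from the first: mitochondrial ribosomal RNA took 18.4% of its counts against 10.6% to 14.3% in the other 7 libraries, and its ribosomal protein genes differed from those of the first by GC content. The edgeR counts of members called in the hPFE comparisons, and the calls of RPS10 and RPS19, are given with and without it. Without it the members' median log2 fold change in hPFE against hESC was -0.73. Other hPFE fold changes, among them those of RPL3 and RPL8, and the counts of other gene lists include it.

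The starts of the messages are shown first because the TOP run is what most members share beyond their symbol. RefSeq lists a transcription start for 67 of the 84 members (GRCh38.p14), with 83 starts in all. A C followed by C or T for at least 5 bases in all began at 1 or more listed starts of 47 members (70.1%), against 5.14% of all 27305 genes listed and 6.36% of 14896 protein-coding genes. Only the strand of the gene was read, and the match was placed at the listed start itself. The windows hold 15 bases before the start and 15 from it, 5′ to 3′, with the uninterrupted run of C and T from the start in capitals.
RPS6: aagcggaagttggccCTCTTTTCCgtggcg
RPLP0: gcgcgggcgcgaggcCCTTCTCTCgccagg
RPL13A: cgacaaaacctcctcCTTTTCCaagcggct
RPL12: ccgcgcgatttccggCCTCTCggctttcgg
RPS10: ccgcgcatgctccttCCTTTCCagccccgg
RPL22: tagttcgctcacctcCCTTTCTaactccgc
RPL22L1: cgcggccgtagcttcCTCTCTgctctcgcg
RPL39: ttcttccgccagcttCCCTCCTCTTCCTTT
RPS27: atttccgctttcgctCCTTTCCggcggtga
RPS27L: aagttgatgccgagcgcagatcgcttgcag
RPL7L1: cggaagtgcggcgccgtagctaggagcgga
These windows lie at chr9:19380222-19380251 (RPS6, minus strand), chr12:120201097-120201126 (RPLP0, minus), chr19:49487593-49487622 (RPL13A, plus), chr9:127451392-127451421 (RPL12, minus) and chr6:34426055-34426084 (RPS10, minus). The parents and paralogs lie at chr1:6199581-6199610 (RPL22, minus), chr3:170870181-170870210 (RPL22L1, minus), chrX:119791616-119791645 (RPL39, minus), chr1:153990747-153990776 (RPS27, plus), chr15:63157463-63157492 (RPS27L, minus) and chr6:42879601-42879630 (RPL7L1, plus). RPL22L1 carried a run of 6 bases, shorter by 1 base than the 7 of its parent RPL22, while RPS27L and RPL7L1 began with G and had none, unlike RPS27 with its run of 7 bases. RPL39 had the longest run among the windows printed, which filled the 15 bases shown and ran on to 19 bases. RPL39L had no start listed.

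Together the members took 24.85% to 24.89% of the nuclear protein-coding TPM (transcripts-per-million, a level per length) in the 2 hESC libraries. That share was 18.91% and 20.36% in hDE, 21.65% and 20.87% in hAFE and 19.05% and 18.84% in hPFE, so both libraries of every later stage were below both hESC libraries. By estimated counts, which are not divided by length, the share was 7.67% and 7.56% in hESC, 4.98% and 5.73% in hDE, 6.0% and 5.68% in hAFE, and 5.03% and 4.74% in hPFE. An exact permutation test of 2 against 2 libraries cannot give a two-sided p below 0.333, and no test of these shares was made. The TPM of the small subunit genes stood at 0.745 and 0.746 of that of the large subunit genes in hESC and at 0.725 and 0.719 in hPFE.

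Among the 77 members outside the paralogs, 75 had a mean TPM over the 8 libraries between 136.9 (RPL28, a large subunit protein) and 1430 (RPL41, the smallest ribosomal protein), a 10.4-fold range with a median of 542.9. RPL41, RPS27 and RPS29, all short proteins, had the highest levels, with means of 1430, 1427 and 1399 TPM. RPS16 and RPLP1 lay far below the rest. RPS16, a small subunit protein, was listed at 10.03 and 8.91 TPM in hESC, 5.78 and 6.98 in hDE, 7.94 and 6.80 in hAFE, and 6.48 and 6.72 in hPFE. RPLP1, a protein of the acidic stalk that recruits translation factors, was listed at 30.7 and 35.8 TPM in hESC, 17.3 and 25.01 in hDE, 30.1 and 20.8 in hAFE, and 16.3 and 31.3 in hPFE. The lowest of the other 75 had 18.4 times the mean TPM of RPS16 and 5.29 times that of RPLP1. The mean transcript length in the deposited tables was 1068 to 1181 bases for RPLP1, near the longest of its 3 annotated coding transcripts (256 to 1197 bases), and 637 to 713 bases for RPS16, whose 6 coding transcripts span 407 to 643 bases. Whether reads of these 2 genes were assigned elsewhere was not tested, and their levels are uncertain.

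**Figure D1:**
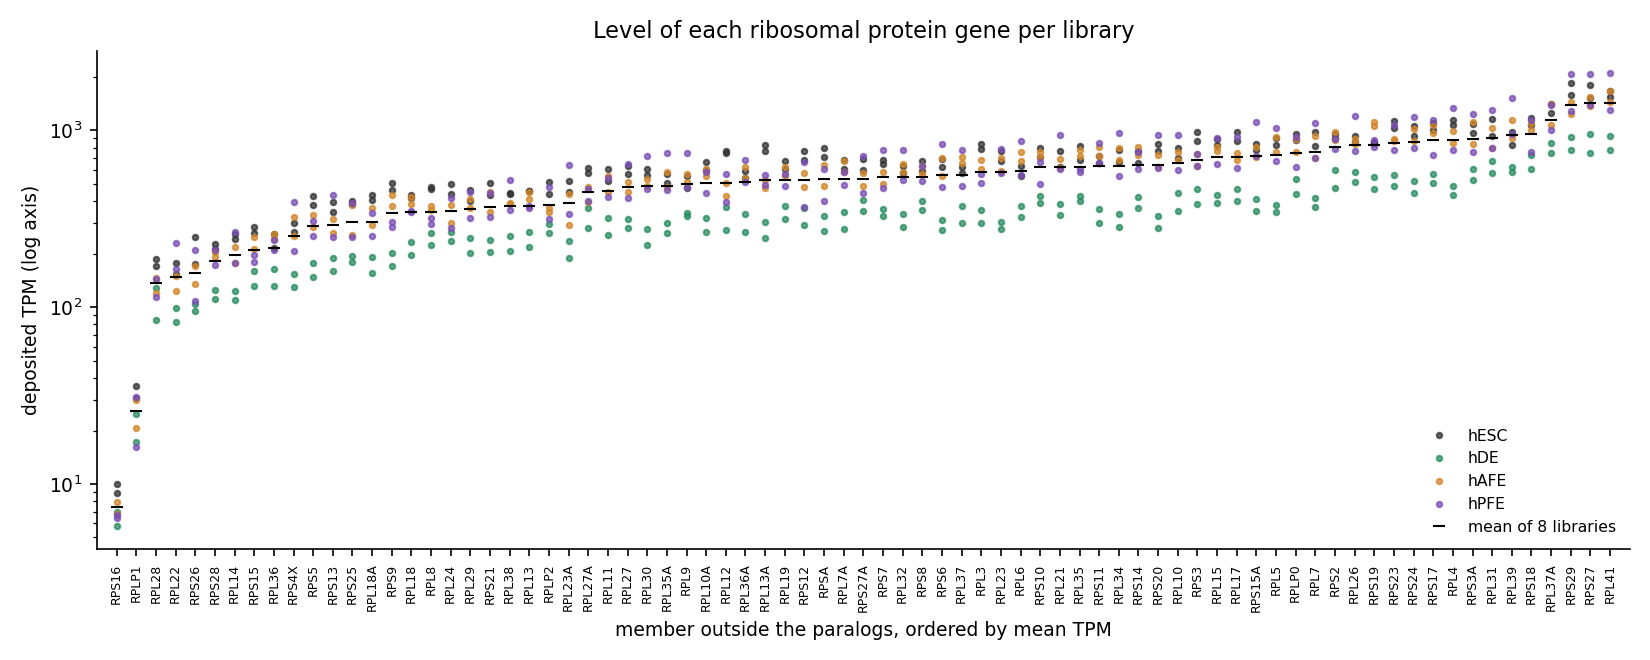
Deposited TPM on a log axis (y) of the 77 members outside the paralogs (x, ordered by mean), with 1 point per library coloured by stage and a dash at the mean of 8 libraries. RPS16 and RPLP1 sit apart at means of 7.46 and 25.9 TPM, and the other 75 lie between 136.9 and 1430 TPM. On this scale, which has no TMM scaling, hDE has the lowest stage mean for all 77.

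Of the 84 members, 82 passed the count filter and were tested, 5 of them paralogs. RPL10L had 0 counts in all 8 libraries, which allows at most 0.0253 CPM over all libraries together, and RPL3L had 21 counts in all, at most 8 in any library. Neither was tested. RPL10, the parent of RPL10L and one of the last proteins to join the large subunit, had 820.4 and 873.2 CPM in hESC, 613.4 and 732.6 in hDE, 670.2 and 633.0 in hAFE, and 559.5 and 601.5 in hPFE. Both hESC libraries lay above all others, and the log2 fold change in hPFE against hESC was -0.54 ± 0.14 (edgeR adjusted p = 0.0167, or 0.0635 and 0.111 without the first and the second hESC library).

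Between the first and the last stage nearly every member fell. In hPFE against hESC 77 of the 82 tested members fell and 1 rose (RPS27L), at an adjusted p of 0.05 in edgeR's quasi-likelihood test over all 17446 genes tested; of all those genes 23.3% fell and 21.6% rose, and of the 1611 genes averaging 100 CPM or more 35.3% fell. The median log2 fold change of the members was -0.76, or 0.592 of the hESC level, against 0.02 for all genes tested. Outside the paralogs, 44 of 46 large subunit genes (median -0.69) and all 31 small subunit genes (median -0.77) fell, and the called log2 fold changes ran from -1.25 to -0.40. Both hPFE libraries were below both hESC libraries for 79 members, against 38.2% of all genes tested. Without the second hPFE library 71 members were called lower, and without the second hESC library 45. Stage and origin cannot be told apart here.

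RPL12, a protein of the stalk base, had the largest fall outside the paralogs: 758.8 and 726.0 CPM in hESC, 417.5 and 544.7 in hDE, 382.9 and 349.2 in hAFE, and 315.9 and 307.8 in hPFE. Its libraries did not overlap between hESC and any later stage. The log2 fold change in hPFE against hESC was -1.25 ± 0.16 (SE; edgeR adjusted p = 0.000962). RPL8, which lies close to the peptidyl transferase centre, had 565.8 and 536.4 CPM in hESC and 289.1 and 182.0 in hPFE, with 382.4 and 428.5 in hDE and 339.3 and 329.6 in hAFE (hPFE against hESC -1.23 ± 0.21, edgeR adjusted p = 0.00329). RPL3, which helps shape the same centre and is the parent of RPL3L, had 1975 and 1958 CPM in hESC, 1005 and 1144 in hDE, 1256 and 1154 in hAFE, and 1044 and 660.4 in hPFE. Its fall was -1.21 ± 0.22 (edgeR adjusted p = 0.00391), and the 2 hPFE libraries of RPL3 and RPL8 differed more from each other than the 2 libraries of any other stage.

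**Figure D2:**
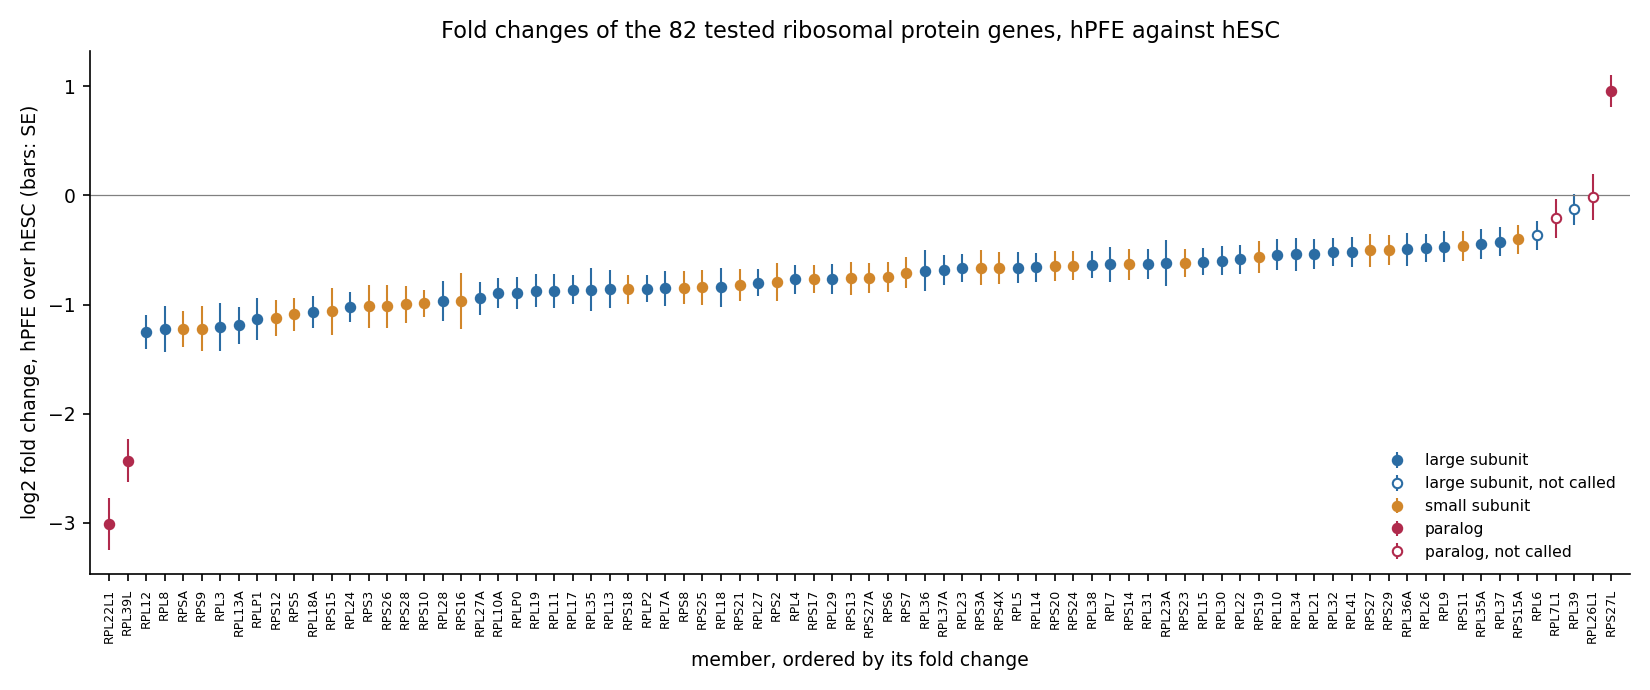
Log2 fold change of hPFE over hESC (y, bars are SE) for the 82 tested members (x, ordered by value), coloured by subunit and paralog, with open circles for members that were not called. Most members lie between -1.25 and -0.40, RPL22L1 (-3.01) and RPL39L (-2.43) lie far below, and RPS27L (0.96) is the only member called higher.

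Members that often serve as reference genes moved with the others. RPLP0, the core of the acidic stalk, had 2016 and 2043 CPM in hESC, 1430 and 1653 in hDE, 1510 and 1338 in hAFE, and 1099 and 1090 in hPFE. Both hPFE libraries were lower than every other library, and the fall from hESC was -0.89 ± 0.15 (edgeR adjusted p = 0.00261). RPS18, a protein of the head of the small subunit, had 1043 and 1050 CPM in hESC and 569.5 and 583.8 in hPFE (-0.86 ± 0.13, edgeR adjusted p = 0.00206). RPL13A, also known for silencing inflammatory messages outside the ribosome, had 1690 and 1703 CPM in hESC, 787.6 and 932.5 in hDE, 864.1 and 820.0 in hAFE, and 840.2 and 648.7 in hPFE. It stood at its high level only in hESC, with no overlap with any later library (hPFE against hESC -1.19 ± 0.17, edgeR adjusted p = 0.00147).

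RPS6, the target of the S6 kinases, had 1515 and 1553 CPM in hESC, 1037 and 1145 in hDE, 1194 and 1056 in hAFE, and 921.9 and 904.9 in hPFE (hPFE against hESC -0.75 ± 0.14, edgeR adjusted p = 0.00414). RPL5 and RPL11 join the large subunit together with its small ribosomal RNA. RPL5 had 962.6 and 1005 CPM in hESC, 564.2 and 619.9 in hDE, 757.3 and 639.7 in hAFE, and 600.7 and 643.0 in hPFE, with both hESC libraries above all others. RPL11 had 584.3 and 601.4 CPM in hESC, 390.6 and 473.7 in hDE, 452.2 and 400.2 in hAFE, and 348.9 and 298.6 in hPFE. Both fell in hPFE against hESC, RPL5 by 0.66 ± 0.14 (edgeR adjusted p = 0.00775, or 0.0608 without the second hESC library) and RPL11 by 0.87 ± 0.16 (edgeR adjusted p = 0.00367) on the log2 scale. RPS19, mutated in Diamond-Blackfan anaemia, had 652.4 and 622.9 CPM in hESC, 507.6 and 567.7 in hDE, 661.9 and 646.6 in hAFE, and 477.7 and 385.1 in hPFE. Its hAFE libraries overlapped those of hESC, and the log2 fold change in hPFE against hESC was -0.56 ± 0.15 (edgeR adjusted p = 0.0178). That call was lost without either hESC library or the second hPFE library (adjusted p 0.0587 to 0.0959).

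The 5 tested members that did not fall in hPFE against hESC were RPS27L, RPL39, RPL6, RPL7L1 and RPL26L1; RPL6 is named here after its values were seen. RPL39, a very short protein that lines the exit tunnel, had 398.6 and 431.8 CPM in hESC, 399.3 and 417.9 in hDE, 405.3 and 340.9 in hAFE, and 364.2 and 395.3 in hPFE. Its stage means lay between 373.1 and 415.2 CPM, and its 2 hAFE libraries differed the most. The log2 fold change of RPL39 was -0.13 ± 0.14 in hPFE against hESC. RPL6 had 963.2 and 1028 CPM in hESC and 747.7 and 796.1 in hPFE, lower in both libraries without passing the threshold (-0.37 ± 0.13, edgeR adjusted p = 0.0558).

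**Figure D3:**
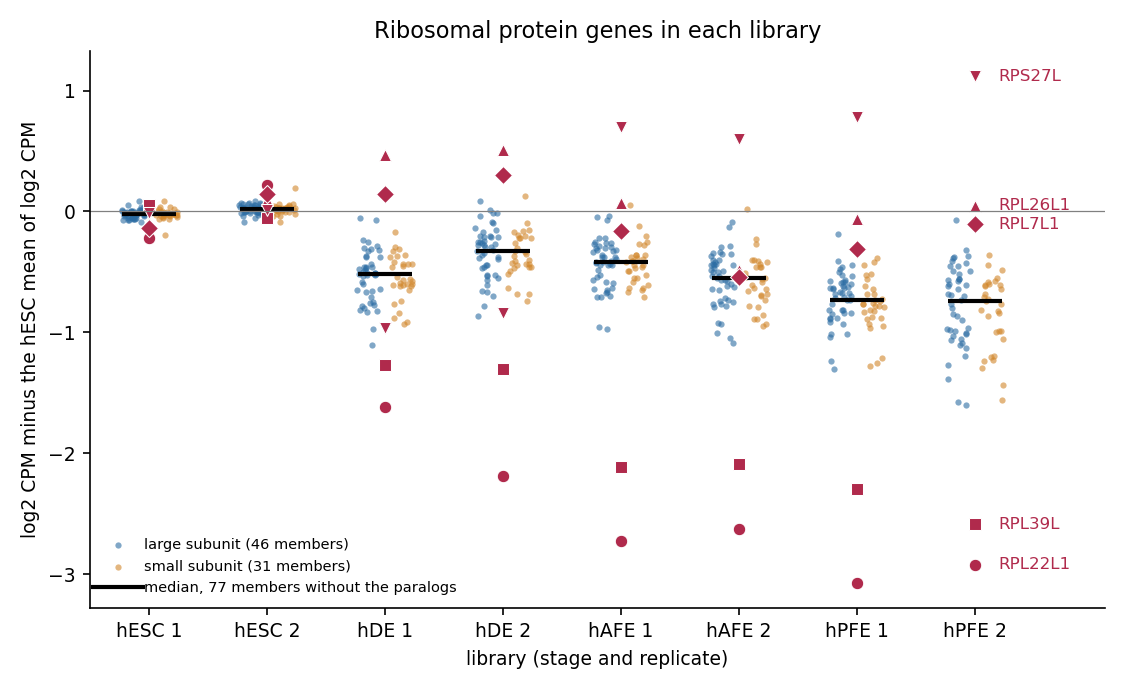
Log2 CPM minus the hESC mean of log2 CPM (y) for each of the 82 tested members in the 8 libraries (x), with large and small subunit members side by side, a dash at the median of the 77 members outside the paralogs and red symbols for the paralogs. The medians of all later libraries lie below 0, the spread among members is widest in the second hPFE library, and RPS27L, RPL22L1 and RPL39L leave the group.

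The first step, hDE against hESC, compares 2 stages whose titles share the re-analysed mark. Of the 82 tested members 41 fell and 0 rose. Of all genes tested 21.6% fell and 20.3% rose, and 26.2% of those at 100 CPM or more fell. At an unadjusted p under 0.05 in edgeR 56 members were lower and 0 higher, while 4550 of all 17446 genes tested were lower. DESeq2 called 55 members lower and 0 higher. No share of all genes was taken for DESeq2 in any comparison. The members' median was -0.42 against -0.01 for all genes. Both hDE libraries were below both hESC libraries for 74 members, against 40.7% of all genes. Outside the paralogs 21 of 46 large and 17 of 31 small subunit genes fell, and the largest of these falls was that of RPL13A (-0.98 ± 0.17, edgeR adjusted p = 0.00327). RPL5 (-0.73 ± 0.14, edgeR adjusted p = 0.0054) and RPS6 (-0.49 ± 0.14, edgeR adjusted p = 0.0231) fell, the first not without the first hDE library (adjusted p = 0.0507) and the second not without any 1 of the 4 libraries compared (0.0625 to 0.139), while RPLP0 (-0.40), RPS18 (-0.20) and RPS19 (-0.25) did not pass. The count depended on single libraries: it was 7 without the first hDE library, 23 without the second, 13 without the first hESC library and 11 without the second. Of the 41 members called lower here 40 were also called lower in hPFE against hESC, 2 comparisons that share the hESC libraries.

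In hAFE against hDE few members changed. Of the 82 tested, 7 fell and 1 rose, while 15.2% of all genes tested fell and 15% rose (22.5% fell among those at 100 CPM or more), and the median was -0.06 against 0.01 for all genes. Both hAFE libraries were below both hDE libraries for 27 members, against 35.2% of all genes. The 7 that fell were RPL22L1, RPL39L, RPL7L1 and RPL26L1 of the paralogs and RPLP1, RPLP2 and RPL24 of the rest; RPLP2 and RPL24 are named after their values were seen. RPLP2, the partner of RPLP1 in the stalk, had 213.5 and 239.0 CPM in hDE and 163.0 and 156.6 in hAFE (-0.50 ± 0.13, edgeR adjusted p = 0.0205). RPLP1 had 56.0 and 73.7 CPM in hDE and 44.6 and 36.4 in hAFE (-0.68 ± 0.19, edgeR adjusted p = 0.0317), with the uncertainty of its level given above. RPL24, which joins the subunits at their interface, had 342.2 and 367.4 CPM in hDE and 279.2 and 234.9 in hAFE (-0.46 ± 0.14, edgeR adjusted p = 0.0359). The calls of RPLP2 and RPL24 were lost without either hDE library or the second hAFE library. Without the second hAFE library, or without either hDE library, 1 member was called lower. For RPLP1 the adjusted p was 0.058 to 0.214 without either hESC library, the second hDE library or the second hAFE library.

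The last step, hPFE against hAFE, had 1 call. RPS10, a small subunit protein at the beak of the head, had 516.0 and 507.3 CPM in hAFE and 352.0 and 322.0 in hPFE. The groups did not overlap, and the log2 fold change was -0.60 ± 0.12 (edgeR adjusted p = 0.0309). The call was lost without any 1 library other than the first of hPFE (adjusted p 0.0595 to 0.0827, the lowest of these without the second hPFE library). Of all genes tested 2.71% fell and 4.77% rose, and 5.28% of those at 100 CPM or more fell. The members' median was -0.24 against -0.03 for all genes, and 75 of 82 had a value below 0, against 9165 of all 17446 genes tested. At an unadjusted p under 0.05 in edgeR 23 members were lower, against 2246 of all genes tested. Both hPFE libraries were below both hAFE libraries for 59 members, against 26.6% of all genes. RPS19 (-0.60 ± 0.15, edgeR adjusted p = 0.0522) and RPS18 (-0.42 ± 0.13, edgeR adjusted p = 0.0933) were lower in both libraries and did not pass. Without the second hPFE library 0 members were called (23 were lower at an unadjusted p under 0.05 with all 8 libraries, and DESeq2 called 5 lower on them), and without the first, 11 were called lower.

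The 2 hPFE libraries ordered the members differently by base composition. Members span 40.4% to 62.8% GC over their transcripts, with a median of 49.6%. Of the 41 members above that median 31 were lower in the second library than in the first, against 8 of the 41 at or below it, and Pearson's r between GC content and the difference was -0.725 across the 82 members, which share 2 libraries and are not independent. Over the 1611 genes at 100 CPM or more it was -0.306, and the differences between the libraries of hESC, hDE and hAFE gave r of -0.388, 0.389 and 0.157 across the members. RPL3 and RPL8, at 56.0% and 62.2% GC, had 660.4 and 182.0 CPM in the second library against 1044 and 289.1 in the first, while RPS26, at 48.0% GC, had 120.5 against 92.3. The fold changes of hPFE against hAFE went with GC content at r = -0.608 and at -0.391 after offsets on GC content, under which 2 members fell. In hPFE against hESC r was -0.246 and, after the offsets, -0.048, with 78 members called lower, 1 more than without them.

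**Figure D4:**
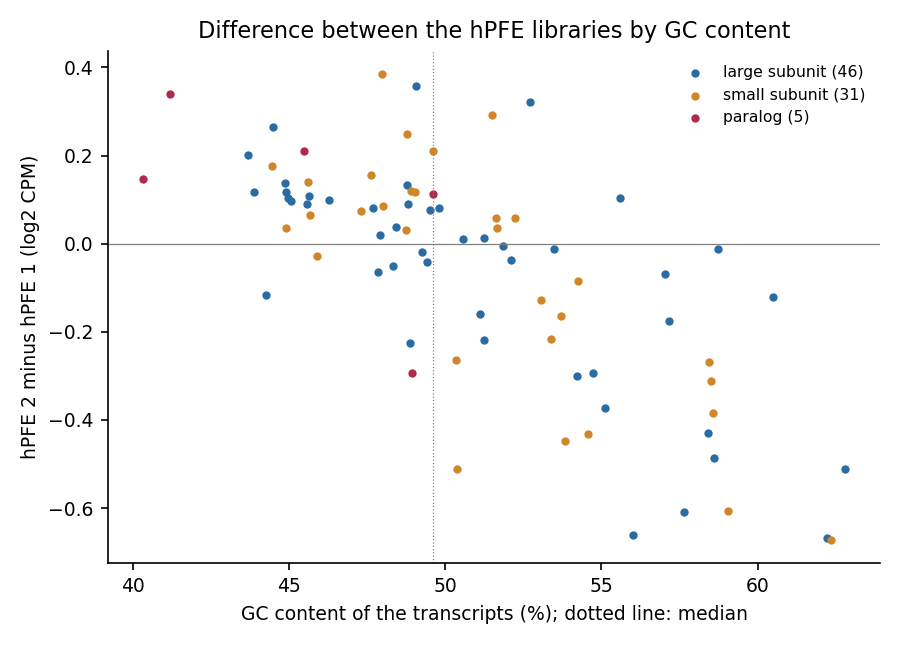
Difference between the hPFE libraries (y, second minus first, log2 CPM) against the GC content of the transcripts (x, %) for the 82 tested members, coloured by subunit and paralog, with a dotted line at the median GC content. Points right of the line lie mostly below 0 (31 of 41) and points left of it mostly above (8 of 41 below).

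The paralogs moved apart from the rest and from each other. RPL22L1 (ENSG00000163584.17, chr3:170864875-170870483 on hg38), the close copy of RPL22, was at 76.7 and 103.4 CPM in hESC, 29.1 and 19.6 in hDE, 13.5 and 14.4 in hAFE, and 10.6 and 11.8 in hPFE. Each later stage was below the one before it in both libraries. It fell by 1.89 ± 0.23 in hDE against hESC (edgeR adjusted p = 0.000697), by 0.80 ± 0.23 in hAFE against hDE (edgeR adjusted p = 0.0334) and by 3.01 ± 0.24 in hPFE against hESC (edgeR adjusted p = 0.000161) on the log2 scale. The second of these calls was lost when either hAFE library or the first hDE library was left out. With all libraries kept it was also lost with only the 4 libraries compared (edgeR adjusted p = 0.0556) and relative to the summed counts of all members (edgeR adjusted p = 0.0623). It was lost as well with voom and a weight per library (limma adjusted p = 0.0963), on TMM-scaled TPM (limma, 0.0516) and on unscaled TPM (limma, 0.889). RPL22 itself had 364.4 and 358.7 CPM in hESC, 258.5 and 285.1 in hDE, 278.1 and 244.7 in hAFE, and 244.3 and 237.2 in hPFE, a fall of 0.59 ± 0.13 from hESC to hPFE (edgeR adjusted p = 0.00884). That call was lost without either hESC library, with effective length offsets (edgeR adjusted p = 0.0603) and on TMM-scaled TPM (limma adjusted p = 0.066). On unscaled TPM and relative to the summed counts of all members it was lost and changed sign. Per length, the paralog stood at 62.5% ± 11.4 (SD, n = 2) of the TPM of RPL22 in hESC, at 21.2% ± 8.69 in hDE, at 14.1% ± 1.49 in hAFE and at 9.20% ± 1.20 in hPFE.

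RPL39L, the close copy of the tunnel protein RPL39, was at 30.6 and 28.4 CPM in hESC, 12.2 and 11.95 in hDE, 6.81 and 6.95 in hAFE, and 6.01 and 4.91 in hPFE. The libraries of each stage lay below those of the stage before, while RPL39 passed the test in none of the 4 comparisons. The falls were 1.29 ± 0.19 in hDE against hESC (edgeR adjusted p = 0.00152), 0.81 ± 0.19 in hAFE against hDE (edgeR adjusted p = 0.0159) and 2.43 ± 0.19 in hPFE against hESC (edgeR adjusted p = 0.000166). The second of these was lost without either hDE library or the first hAFE library, and with all libraries kept on unscaled TPM (limma adjusted p = 0.799). The step from hAFE to hPFE did not pass for RPL39L (-0.33 ± 0.19) or for RPL22L1 (-0.32 ± 0.23). RPL39L stood at 2.67% ± 0.36 (SD, n = 2) of the TPM of RPL39 in hESC and at 0.55% ± 0.11 in hPFE.

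RPS27L (chr15:63125872-63158021 on hg38), the close copy of RPS27, was the only member to rise in edgeR's test in any of the 4 comparisons. It was at 44.9 and 45.5 CPM in hESC, 23.1 and 25.2 in hDE, 73.1 and 68.3 in hAFE, and 77.6 and 98.1 in hPFE. It fell into hDE (-0.90 ± 0.15, edgeR adjusted p = 0.00283), rose into hAFE (1.55 ± 0.15, edgeR adjusted p = 0.000388) and ended above hESC (0.96 ± 0.15, edgeR adjusted p = 0.00195). These 3 directions held in every alternative run, though the fall into hDE had an adjusted p of 0.0582 when levels were set against the summed counts of all members. RPS27 had 595.3 and 630.7 CPM in hESC, 415.8 and 527.0 in hDE, 443.5 and 418.1 in hAFE, and 427.7 and 437.1 in hPFE, and RPS27L went from 2.52% ± 0.06 of its TPM in hESC through 1.58% ± 0.18 and 4.52% ± 0.72 to 6.28% ± 0.72 in hPFE (SD, n = 2).

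RPL7L1, a copy of RPL7 that works in ribosome assembly, and RPL26L1, the copy of RPL26, had their highest CPM in hDE, which did not pass against hESC (log2 fold change 0.22 ± 0.18 and 0.48 ± 0.21, SE, edgeR adjusted p = 0.352 and 0.102). By TPM, as deposited, both had their lowest mean in hDE. RPL7L1 was at 163.3 and 198.4 CPM in hESC, 198.7 and 222.4 in hDE, 161.0 and 123.5 in hAFE, and 144.8 and 167.5 in hPFE. RPL26L1 was at 16.3 and 18.7 CPM in hESC, 24.1 and 24.8 in hDE, 18.4 and 12.5 in hAFE, and 16.7 and 18.0 in hPFE. Both fell in hAFE against hDE, by 0.57 ± 0.18 (edgeR adjusted p = 0.047) and 0.66 ± 0.21 (edgeR adjusted p = 0.0494), and neither passed in hPFE against hESC (-0.21 ± 0.18 and -0.01 ± 0.21). Both calls were lost without either hESC library, either hDE library or the second hAFE library (adjusted p 0.0672 to 0.227). With all libraries kept, both were also lost with only the 4 libraries compared (0.0543 for RPL7L1 and 0.0724 for RPL26L1), with the replicate block (0.0686 and 0.0669), with effective length offsets (0.121 and 0.0702) and on unscaled TPM (0.269 and 0.623), RPL7L1 on TMM-scaled TPM (0.103), and RPL26L1 with DESeq2 (0.0592) and with no count filter (0.0565). Their parents fell in hPFE against hESC, RPL7 by 0.63 ± 0.16 (edgeR adjusted p = 0.0146) and RPL26 by 0.48 ± 0.13 (edgeR adjusted p = 0.0178), calls that were lost without either hESC library (0.0515 to 0.102).

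**Figure D5:**
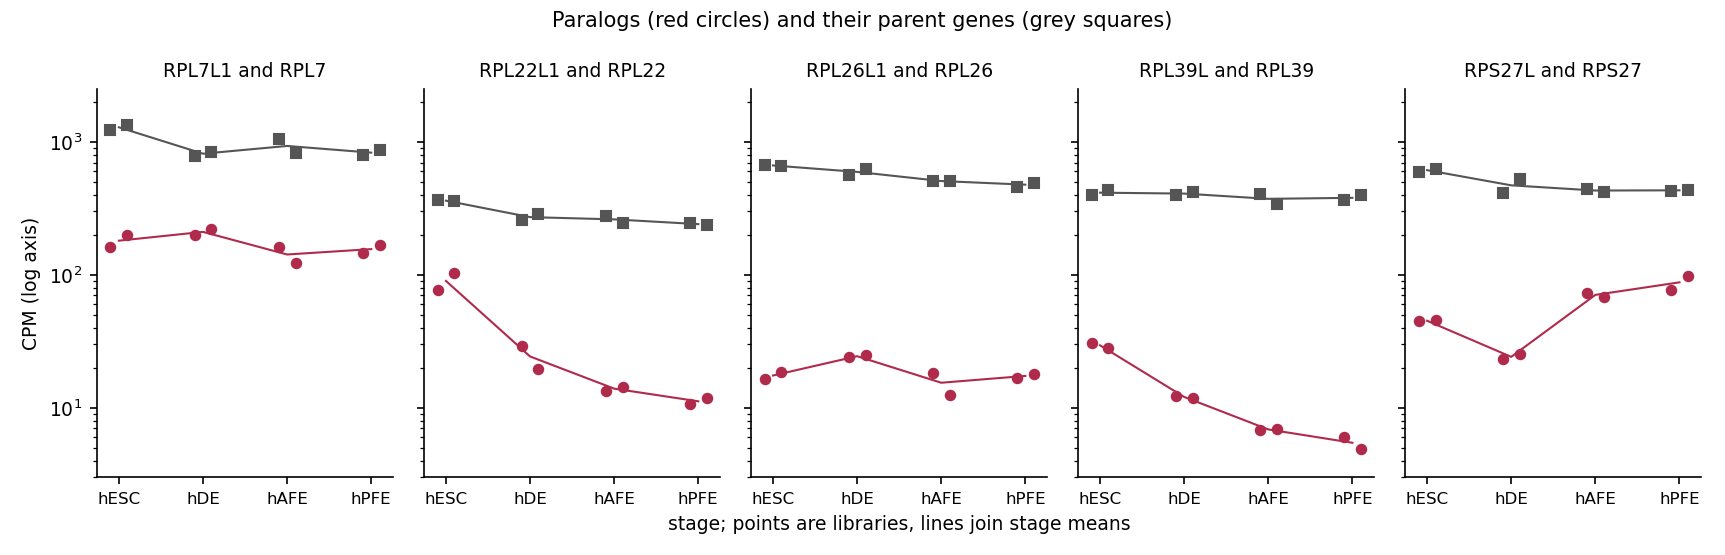
CPM on a log axis (y) of the 5 tested paralogs (red circles) and their parents (grey squares) at the 4 stages (x), with 1 point per library and lines joining stage means. RPL22L1 drops from a mean of 90.1 to 11.2 CPM and RPL39L from 29.5 to 5.46 CPM. RPS27L goes from 45.2 through 24.2 to 87.9 CPM. On the log axis RPL22, RPL39 and RPS27 stay within a narrower range than their own paralogs, which does not hold for RPL7 and RPL7L1.

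What counted as a fall depended on the scale. Nuclear protein-coding genes held 12.9% and 14.1% of all TPM in the hDE libraries against 19.9% to 30.3% in the others. On log2(TPM + 1) as deposited, with no scaling, the median of all genes tested moved by -0.27, 0.50, 0.14 and 0.36 in hDE against hESC, hAFE against hDE, hPFE against hAFE and hPFE against hESC, and the members' median by -0.95, 0.79, 0.00 and -0.17. Relative to all genes the members were then at -0.69, 0.29, -0.14 and -0.53. On that scale 60 members fell in the first of these comparisons (25.4% of all genes), 45 rose and 0 fell in the second (37.0% and 4.69% of all genes), and 1 rose and 3 fell in the last (30.6% and 8.25%). With TMM scaling of the same TPM values 71 fell and 1 rose in hPFE against hESC (21.2% and 18.6% of all genes).

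Set against the summed counts of all members in place of all genes, 5 members fell and 5 rose in hPFE against hESC, while 8.27% of all genes fell and 50.1% rose. RPL22L1 (-2.25 ± 0.28), RPL39L (-1.67 ± 0.22), RPL12 (-0.49 ± 0.14), RPSA (-0.47 ± 0.14) and RPL13A (-0.43 ± 0.16) fell within the total. RPS27L (1.72 ± 0.16), RPL26L1 (0.75 ± 0.20), RPL39 (0.63 ± 0.14), RPL7L1 (0.55 ± 0.17) and RPL6 (0.39 ± 0.14) rose within it. RPSA, the laminin receptor and small subunit protein, is named after its values were seen. The median of all genes tested moved by 0.77 on this scale.

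Members with and without a TOP run at a listed start are set side by side here. Outside the paralogs 46 tested members had a run at a listed start and 16 had a start without one. The run was read from the listed base only, and some of the 16, such as RPL10A, RPS28 and RPL4, have one a few bases further on. The 16 are therefore not shown to lack TOP messages. In hPFE against hESC 45 of the 46 and 15 of the 16 fell, with medians of -0.76 and -0.79. There 23.3% of all genes tested fell, and 35.3% of those at 100 CPM or more. In hDE against hESC 18 of the 46 and 9 of the 16 fell, with medians of -0.36 and -0.44. There 21.6% of all genes tested fell, and 26.2% of those at 100 CPM or more. No test of the difference between the 46 and the 16 was made.

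Close copies limit some of the values. GENCODE lists 1145 pseudogenes of the members, of which 441 held any count, and these counts amounted to 2.05% to 2.45% of those of the members in each library. RPL9P9 was listed at a mean of 394.8 TPM against 498.8 for RPL9, and RPL23AP42 at 375.1 TPM against 386.4 for RPL23A. RPL39P3 stood at 142.2 TPM (0 to 376.3 across libraries) against 940.7 for RPL39, with 0.282% of the counts of RPL39. RPS2P5 stood at 140.5 TPM against 807.2 for RPS2. RPL22P1 stood at 50.9 TPM (10.2 to 119.1 across libraries) against 147.9 for RPL22, with 7.07% of the counts of RPL22. The TPM ratios of RPL39L and RPL22L1 above were taken to RPL39 and RPL22 without these pseudogenes. When each member was summed with its pseudogenes, the calls of hPFE against hESC stayed at 77 lower and 1 higher. The deposited posterior standard deviation was highest relative to the count for RPS26 (0.0138), RPL22 (0.00717) and RPL23A (0.00629), with a median of 6.57e-05 over the members. RPL23A had 431.6 and 465.9 CPM in hESC, 261.4 and 311.7 in hDE, 320.8 and 224.0 in hAFE, and 255.5 and 327.4 in hPFE, and fell in hPFE against hESC by 0.62 ± 0.21 (edgeR adjusted p = 0.0427), a call lost without either hESC library, either hDE library or the first hPFE library (0.0646 to 0.183). RPS26 had 186.6 and 243.7 CPM in hESC and 92.3 and 120.5 in hPFE (-1.02 ± 0.19, edgeR adjusted p = 0.00487).

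Ribosomal proteins outside the symbol rule were looked at beside the members. FAU, made as a fusion with a ubiquitin-like protein, fell in hPFE against hESC by 0.99 on the log2 scale, RPL36AL by 0.70 and the scaffold RACK1 by 0.78, the last from 1190 and 1197 CPM to 709.2 and 683.5. Of all genes tested 23.3% fell and 21.6% rose in hPFE against hESC, and of those at 100 CPM or more 35.3% fell. Of 16 translation factors and other genes with TOP messages 10 fell and 0 rose (median -0.61). EEF1A1, which carries aminoacyl transfer RNA to the ribosome, went from 14990 and 14900 CPM in hESC to 8491 and 9402 in hPFE (-0.74, edgeR adjusted p = 0.011). EEF2, which moves the ribosome along, fell by 1.16 (edgeR adjusted p = 0.00296) and EEF1G by 0.49 (0.03), while TPT1 (-0.10) did not pass. Of 10 tested noncoding hosts of small nucleolar RNAs with TOP starts 8 fell (median -0.79), among them GAS5 (-0.68), SNHG16 (-0.70) and SNHG5 (-1.34), and SNHG1 (-0.41) did not pass.

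Of 32 ribosome biogenesis genes 28 fell and 1 rose in hPFE against hESC, with a median log2 fold change of -1.22, beside 23.3% and 21.6% of all genes tested. The nucleolar protein NPM1 had 2179 and 2341 CPM in hESC, 1012 and 1036 in hDE, 1184 and 1076 in hAFE, and 897.6 and 872.9 in hPFE. Its 2 hESC libraries stood above all others (-1.35, edgeR adjusted p = 0.00038). NCL (-1.31) and NOP56 (-1.45) also fell, and NMD3 (0.00) did not pass. The 1 that rose was SBDS (0.58, edgeR adjusted p = 0.0362), named after its values were seen. In hDE against hESC 17 of the 32 fell and 3 rose, beside 21.6% and 20.3% of all genes tested. In hAFE against hDE 8 fell and 0 rose, beside 15.2% and 15%, and in hPFE against hAFE 6 fell and 0 rose, beside 2.71% and 4.77%. Of 14 RNA polymerase I genes, which make the ribosomal RNA precursor, 5 fell and 0 rose in hPFE against hESC (median -0.34), where 23.3% of all genes tested and 35.3% of those at 100 CPM or more fell, among them UBTF (-0.51), POLR1D (-0.71) and POLR1B (-1.36), and TAF1D (-0.20) did not pass.

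Of 15 regulators around MYC and mTOR 7 fell and 1 rose in hPFE against hESC (median -0.32), beside 23.3% and 21.6% of all genes tested. The list mixes activators with inhibitors, so the count gives no direction for the pathway. LARP1, which binds TOP runs, had 278.9 and 258.1 CPM in hESC, 239.8 and 235.3 in hDE, 151.1 and 130.6 in hAFE, and 126.2 and 144.1 in hPFE (-0.99, edgeR adjusted p = 0.0014). MTOR fell by 0.87 and RHEB, its activator, by 0.61, EIF4EBP2 (-0.25) did not pass, and the 1 that rose was RPS6KB1 (0.70), a kinase of RPS6, named after its values were seen. Of 10 proliferation genes, read against the same shares, 6 fell and 0 rose (median -0.55). MCM3 fell by 1.47 (edgeR adjusted p = 0.000321), CCNB1 by 0.54 (0.0404) and PCNA by 0.52 (0.029), and TOP2A (-0.61) did not pass. For the genes of these lists, calls without single libraries are not reported. The part of cell division in the members' fall was not tested. In these bulk samples fewer cells of a type and less RNA per cell cannot be told apart.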

How the data were processed

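Members and gene lists were chosen with earlier results of these data known. The labels' protocols describe total RNA depleted of ribosomal RNA with Ribo-Zero, dUTP strand marking and paired-end sequencing. Per the submitters' processing notes, the authors made gene tables with RSEM on hg38 and also used DESeq2; for the aligner, the sources used here give none. RSEM's expected counts, as the authors deposited them, are estimated counts that share out reads matching several genes. The TPM columns, per the file headers, scale those counts by effective length to shares of the library. Effective lengths and posterior standard deviations, also deposited, were read as other columns.

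All 58780 gene identifiers of the 59526 rows matched GENCODE 29; the other 746 rows held 0 counts. Counts were rounded, filtered with filterByExpr (17446 genes left) and fitted once over the 8 libraries with a mean for each of 4 stages, which leaves 4 degrees of freedom, in edgeR 4.0.16 (TMM, quasi-likelihood test, Benjamini-Hochberg over all genes, 0.05) in R 4.3.3. CPM is TMM-scaled. The SE is the absolute log2 fold change divided by the square root of F. The lowest total, 12687161 counts, sets the precision of low genes; a count of 0 allows 3 counts, and floors cover counting error only. Named members were the paralogs and their parents, up to 4 of the largest called rises and falls per comparison at 10 CPM or more with libraries that do not overlap, the 3 highest and 3 lowest in TPM, 7 reference or marker genes and the 3 with the highest relative posterior standard deviation; from each list, up to 3 called genes and 1 other of the highest level; some list genes and 1 list are not reported here. Promoter starts and windows came from RefSeq (GRCh38.p14). Deviations of same-numbered libraries from their stage means correlated at -0.041 to 0.061 over 9852 genes, so the numbers pair no samples. Alternatives included limma 3.58.1 on TPM, voom, DESeq2 1.42.0 and leaving out each library; TMM-scaled TPM and offsets on GC content were added after seeing the data. The fits were also run on simulated counts with independent genes and no GC or library effect, so that run says nothing about either effect here.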

Additional observations from a re-analysis of the deposited data

How the results depend on the processing

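Leaving out 1 library at a time, the members called lower numbered 7 to 47 in hDE against hESC, 1 to 8 in hAFE against hDE, 0 to 11 in hPFE against hAFE and 45 to 77 in hPFE against hESC, those called higher 0 to 1, 1 to 1, 0 to 0 and 1 to 1, and the medians spanned -0.55 to -0.33, -0.15 to 0.0499, -0.33 to -0.16 and -0.77 to -0.69; the stage left with 1 library is assumed to vary like the others. In hDE against hESC, voom with a weight per library called 68 lower and 1 higher, and a fit on the 4 libraries compared called 1 higher. In hAFE against hDE, the members called higher were 2 with DESeq2, 2 with voom and 3 with offsets on GC content, and those called lower were 3 with only the 4 libraries, 4 with effective length offsets and 4 with the replicate block. In hPFE against hAFE, the members called lower were 5 with DESeq2, 5 with no count filter, 2 with a filter of 1 CPM in 2 libraries, 2 with offsets on GC content, and 0 with only the 4 libraries, with TMM-scaled TPM, with voom and with the replicate block. The replicate block (adjusted p = 0.0569 for RPS10 in hPFE against hAFE) gave 34 lower in hDE against hESC and 74 lower in hPFE against hESC; the replicate numbers do not pair the samples. On unscaled TPM the medians were -0.95, 0.79, -0.0008 and -0.17 in the order above, with 45 members higher and 0 lower in hAFE against hDE, 0 lower in hPFE against hAFE and 3 lower in hPFE against hESC. Among named members called on that scale or the main one, the value there was above 0 and not below it in hAFE against hDE for RPL10 (0.86), RPL11 (0.79), RPL13A (0.86), RPS10 (0.84), which passed there, and for RPL22L1 (0.0605), RPL26L1 (0.19), RPL39L (0.0615), RPL7L1 (0.42) and RPLP1 (0.26), which did not (adjusted p 0.269 to 0.889), and in hPFE against hESC for RPL10 (0.0085), RPL22 (0.23), RPL26 (0.10), RPL41 (0.0486) and RPS27 (0.0364), none of which passed (0.467 to 0.986); members called on neither scale changed sign as well. Relative to the summed counts of all members, 3 were lower and 4 higher in hDE against hESC (median 0.0541), 0 lower in hPFE against hAFE (0.0267), and 5 lower and 5 higher in hPFE against hESC (0.0039). Among named members called on this scale or the main one, the value was above 0 and not below it for RPL11 (0.0103), RPL22 (0.0588) and RPL39 (0.45) in hDE against hESC, and RPL10 (0.22), RPL22 (0.17), RPL23A (0.14), RPL26 (0.28), RPL26L1 (0.75), RPL39 (0.63), RPL41 (0.24), RPL5 (0.10), RPL7 (0.13), RPL7L1 (0.55), RPS19 (0.19), RPS27 (0.26), RPS29 (0.26) and RPS6 (0.0116) in hPFE against hESC; in hDE against hESC named members called on neither scale changed sign as well. The cause of these changes was not tested. Of the other values 206 for counts and medians moved less than 1.5 times or less than the spread between replicates, and 157 times a call of a named member was lost without a change of direction. Each stage had 2 libraries, and the fits leave 4 degrees of freedom.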
